A study of Homo sapiens with 6 samples.

Results

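The genes described here were 9 genes of the actin cytoskeleton, taken from the 60483 gene IDs listed in RNA-seq counts of the human bladder cancer line 253J. They are FLNA, FLNC, ACTN1, ACTN4, TAGLN, TAGLN2, CALD1, TPM2 and MYL9, and each matched 1 row of the counts by its Ensembl ID. All 9 passed the filter on low counts, which kept 14965 genes. The 6 libraries came from 3 FTO-knockdown samples (replicates 4, 5 and 6) and 3 control samples (replicates 1, 2 and 3). The sample titles name siRNA against FTO (siFTO) and control for the 2 groups, whereas the methods of the study describe short hairpin RNA. All samples came from the same cell line. The genes were chosen by their measured CPM in earlier results of these same libraries, in which replicates 4 and 5 stood apart from replicate 6 and the controls. The split itself came from measured values, so every value of the 9 genes below is a description, and no test is given for the split.

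Actin filaments give a cell its shape and, together with myosin II, its contractile force. Filamins and alpha-actinins crosslink the filaments into networks and bundles, tropomyosin and caldesmon lie along them and control the access of myosin, and the myosin regulatory light chain switches the motor on when it is phosphorylated. Transgelins belong to the calponin family of actin-binding proteins. Many of these genes are known targets of serum response factor (SRF), which binds a DNA element called the CArG box, and high levels of several of them are typical of smooth muscle cells and fibroblasts.

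Promoter sequences are shown for the genes whose level was most different between the libraries (FLNC and CALD1) and for those of the 9 that hold a CArG box (FLNA and ACTN1). They come from RefSeq on GRCh38.p14 and run from 250 bases before to 50 bases after an annotated start. Capitals mark each CArG box and each GGAATG (the core of the motif of TEAD factors, printed CATTCC where it lies on the other strand), both searched on the 2 strands. The FLNC promoter lies at chr7:128830156-128830455 on the plus strand, and the first of the CALD1 promoters at chr7:134779384-134779683 on the plus strand. The FLNA promoter lies at chrX:154374585-154374884 on the minus strand, and the third of the ACTN1 promoters at chr14:68977517-68977816 on the minus strand.
FLNC: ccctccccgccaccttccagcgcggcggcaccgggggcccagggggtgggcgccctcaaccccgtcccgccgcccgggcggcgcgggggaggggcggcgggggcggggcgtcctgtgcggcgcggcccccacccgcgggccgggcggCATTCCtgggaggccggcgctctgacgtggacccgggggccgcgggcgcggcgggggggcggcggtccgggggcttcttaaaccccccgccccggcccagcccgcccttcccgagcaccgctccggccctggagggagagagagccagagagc
CALD1: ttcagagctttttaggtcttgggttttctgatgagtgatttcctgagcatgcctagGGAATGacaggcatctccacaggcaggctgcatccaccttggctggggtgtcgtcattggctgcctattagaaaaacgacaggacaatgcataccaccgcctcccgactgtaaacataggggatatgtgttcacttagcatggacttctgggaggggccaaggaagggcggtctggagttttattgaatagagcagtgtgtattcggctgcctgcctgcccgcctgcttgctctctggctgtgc
FLNA: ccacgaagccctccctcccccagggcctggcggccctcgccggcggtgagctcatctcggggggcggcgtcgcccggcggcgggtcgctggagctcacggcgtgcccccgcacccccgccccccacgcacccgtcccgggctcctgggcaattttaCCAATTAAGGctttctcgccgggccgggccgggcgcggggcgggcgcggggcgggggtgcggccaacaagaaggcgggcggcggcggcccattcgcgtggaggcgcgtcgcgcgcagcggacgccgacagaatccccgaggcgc
ACTN1: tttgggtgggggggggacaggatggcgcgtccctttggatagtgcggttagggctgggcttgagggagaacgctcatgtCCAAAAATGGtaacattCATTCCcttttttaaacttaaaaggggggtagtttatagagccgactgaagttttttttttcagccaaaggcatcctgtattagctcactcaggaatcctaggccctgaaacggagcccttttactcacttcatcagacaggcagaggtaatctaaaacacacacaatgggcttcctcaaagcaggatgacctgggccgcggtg
Of the 9 genes, 7 had 17 promoters in this table, and there was no entry for TAGLN and MYL9. A CArG box was found in 2 of the 17, at base -94 in FLNA as CCAATTAAGG and at base -171 in ACTN1 as CCAAAAATGG, counted from the start to the first base of the box. Counted by promoter this was 11.8%, against 1.29% of all 35116 promoters. GGAATG was found in 4 of the 17 promoters, 1 of FLNC, 1 of ACTN1 and 2 of CALD1, against 14.0% of all 35116 promoters. The AP-1 motif TGANTCA was found in 4 of the 17, against 7.71% of all promoters, and TATAAA in 2, against 11.5%. The ACTN1 promoter with the CArG box also holds 1 of the GGAATG matches, and these 2 do not overlap. A match is a stretch of letters and was not tested for binding.

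Total counts ranged from 13162731 to 15709975 in the FTO-knockdown libraries and from 10991789 to 19891269 in the controls. Levels are given as CPM, the count rate of edgeR in which each library is brought to the same size, after scaling of the library sizes by TMM. FTO itself, the RNA demethylase that was targeted, averaged 18.9 ± 2.72 CPM in the FTO-knockdown libraries and 28.1 ± 5.82 CPM in the controls (SD, n = 3 each). Each FTO-knockdown library lay below each control, though replicates 4 and 5 lay only just below control replicate 2. FTO stood at 20.2, 20.7 and 15.75 CPM in replicates 4, 5 and 6, against 31.8, 21.4 and 31.2 CPM in control replicates 1, 2 and 3. Its log2 fold change was -0.57 (adjusted p = 0.0209 from edgeR), a call that was lost without control replicate 1 or 3 and with library totals as scaling, and -0.83 without replicates 4 and 5. Replicates 4 and 5 stood apart from replicate 6, which carries the same label, for example in VIM (vimentin), at 635.5 and 730.4 CPM in replicates 4 and 5 and 0.292 CPM in replicate 6, against 0.568 to 1.02 CPM in the controls. No pair of libraries agreed within sampling noise, since chi-square per degree of freedom was at least 3.80. For replicate 6 it was 18.5 and 25.4 with replicates 4 and 5, against 31.2, 69.0 and 33.9 with control replicates 1, 2 and 3. By this measure replicate 6 was nearer to replicates 4 and 5 than to any control. Nothing in the labels or methods says whether the replicates were grown separately, and the p-values cover only the spread among the 6 samples, which may be technical. The 8 epithelial markers summed to 8656, 8798 and 10940 CPM of library totals in FTO-knockdown replicates 4, 5 and 6, against 8973 to 10880 CPM in the controls. Replicates 4 and 5 were thus the lowest, and most of the sum was KRT8, KRT18 and KRT19. CLDN7 stood at 67.1 to 76.2 CPM of library totals in the FTO-knockdown libraries, against 105.5 to 144.8 CPM in the controls, and ESRP1 at 5.67 to 7.90 CPM, against 10.5 to 12.1 CPM in the controls, so both were lower in every FTO-knockdown library. For the rest of the list (EPCAM, CDH1, KRT8, KRT18, KRT19 and CLDN4) the groups overlapped. CDH1 stood at 222.1, 190.9 and 267.6 CPM of library totals in replicates 4, 5 and 6, against 174.6 to 203.3 CPM in the controls. Of 10 urothelial markers, PPARG (55.1 to 70.4 CPM of library totals in the FTO-knockdown libraries, against 57.8 to 73.3 in the controls) and KRT13 (10.5 to 12.2 CPM in the FTO-knockdown libraries, against 7.59 to 12.8 CPM in the controls) were those that reached 10 CPM in any library. UPK3B had 20 to 42 counts per library, and GATA3 had 12, 12 and 0 counts in replicates 4, 5 and 6, against 1 to 4 counts in the controls. UPK1B was at 0 in all libraries, and UPK1A, UPK2, UPK3A, KRT5 and TP63 had at most 9 counts each.

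The 9 genes did not move as 1 group. FLNC, CALD1 and MYL9 were more than 3 times as high in replicates 4 and 5 as in the other 4 libraries, TAGLN2 and ACTN1 were moderately higher there, FLNA and ACTN4 were somewhat higher in all 3 FTO-knockdown libraries than in the controls, TAGLN differed by less than the spread within either group, and TPM2 was lower in all 3 FTO-knockdown libraries. Replicates 4 and 5 both lay above all other libraries for 5 of the 9 genes (FLNC, ACTN1, TAGLN2, CALD1 and MYL9), a pattern held by 17.6% of all genes tested. Both lay below all others for 1 gene (TPM2), against 16.0% of genes. A ratio over 2 between the means of replicates 4 and 5 and of the other 4 libraries was reached by 3 of the 9, against 3.84% of genes. The gene with the smallest ratio above 2 was MYL9 (3.11) and the next below 2 was TAGLN2 (1.52). These counts rest on the contrast that chose the genes. All 3 FTO-knockdown libraries lay above all 3 controls for 5 of the 9, against 25.8% of genes, and below them for 1, against 25.6%. The median ratio was 1.36 over the 9 genes and 0.997 over all genes tested.

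**Figure D1:**
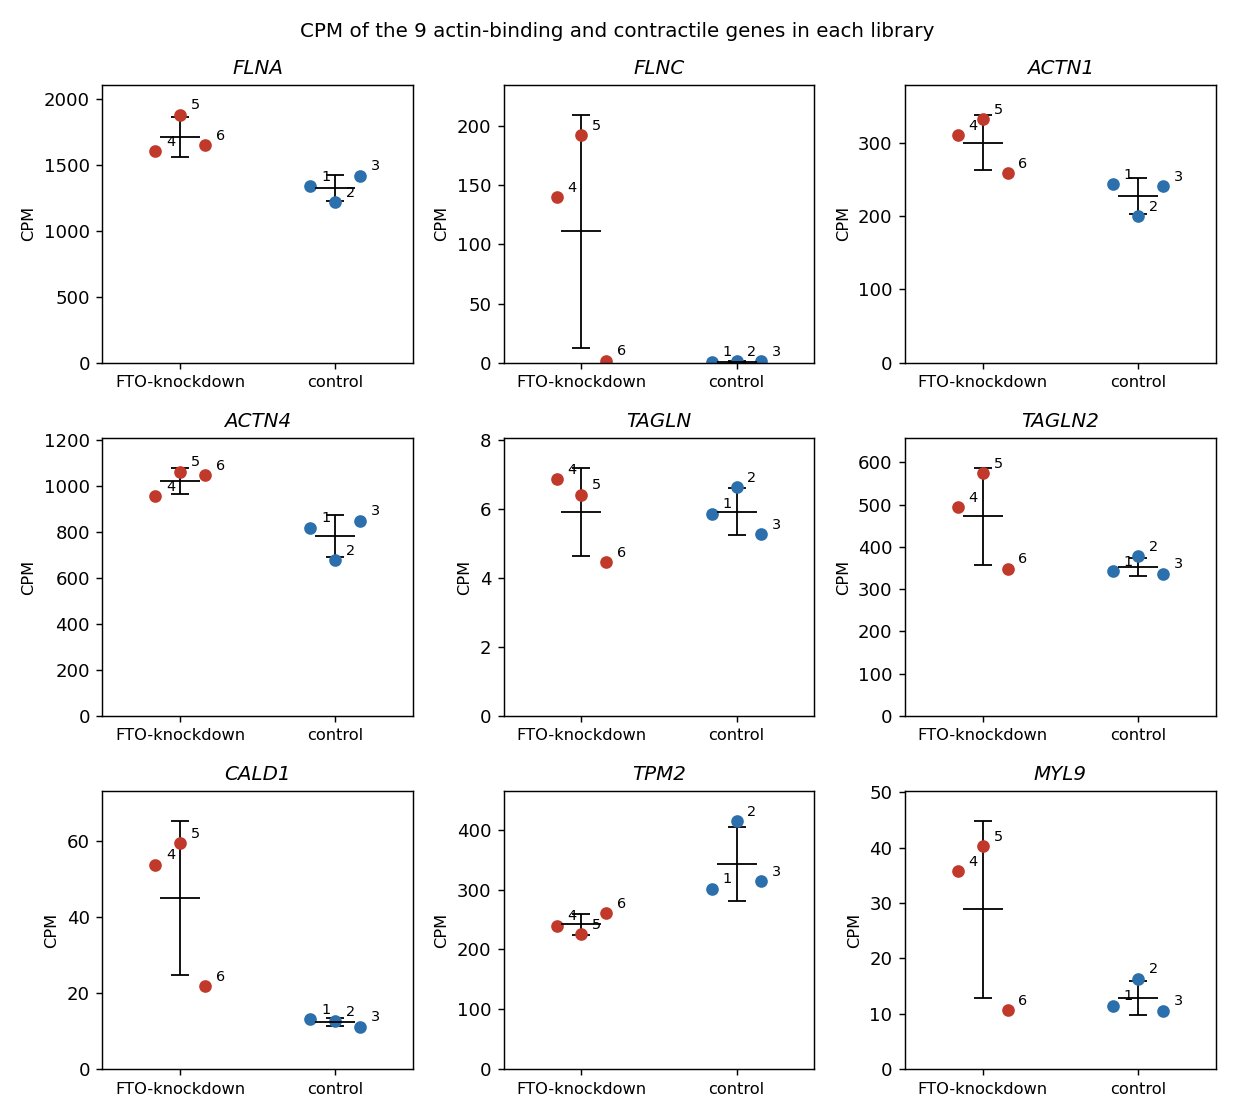
TMM-scaled CPM of the 9 genes in the 3 FTO-knockdown and the 3 control libraries of 253J cells. Each point is 1 library with its replicate number, with lines at the group mean and 1 SD to either side. FLNC reads 139.8 and 192.5 CPM in replicates 4 and 5, 1.68 CPM in replicate 6 and 0.651 to 1.07 CPM in the controls.

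The filamins are large dimeric proteins that crosslink actin filaments and tie them to membrane proteins. FLNC, the filamin of striated muscle, had the largest ratio of highest to lowest CPM of the 9. It had 1976, 3096 and 23 counts in FTO-knockdown replicates 4, 5 and 6, against 7, 16 and 19 counts in control replicates 1, 2 and 3. On the CPM scale these were 139.8, 192.5 and 1.68 in the FTO-knockdown libraries, against 0.651, 1.07 and 0.982 in the controls. Replicates 4 and 5 were far above the other 4 libraries, and replicate 6 lay above the highest control. The mean of replicates 4 and 5 was 151.7 times that of replicate 6 and the controls together. The group comparison gave a log2 fold change of 6.89 (standard error 1.32), and 0.85 when replicates 4 and 5 were left out. The FTO-knockdown mean of FLNC, 111.3 ± 98.5 CPM (SD, n = 3), thus rests on replicates 4 and 5, against 0.902 ± 0.221 CPM in the controls.

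FLNA, the filamin found in nearly all cells, stood at 1602, 1880 and 1650 CPM in FTO-knockdown replicates 4, 5 and 6, against 1336, 1218 and 1416 CPM in control replicates 1, 2 and 3. The groups did not overlap, and replicate 6 lay between replicates 4 and 5, so the split into 4 and 5 against the rest was not the pattern of this gene. Its log2 fold change was 0.37 (standard error 0.09), and 0.32 without replicates 4 and 5.

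The alpha-actinins ACTN1 and ACTN4 are the non-muscle forms that hold antiparallel actin filaments in stress fibres and at adhesions. ACTN1 stood at 310.8, 333.0 and 258.8 CPM in FTO-knockdown replicates 4, 5 and 6, against 243.8, 199.9 and 241.2 CPM in control replicates 1, 2 and 3. The groups did not overlap, with replicates 4 and 5 highest and replicate 6 close to the upper controls. Its log2 fold change was 0.40 (standard error 0.12), and 0.18 without replicates 4 and 5.
ACTN4 stood at 954.9, 1063 and 1046 CPM in FTO-knockdown replicates 4, 5 and 6, against 817.8, 676.8 and 849.1 CPM in control replicates 1, 2 and 3. Here replicate 6 was above replicate 4 and the groups again did not overlap. Its log2 fold change was 0.39 (standard error 0.10), and 0.42 without replicates 4 and 5. ACTN4 shares 14.2% of its exon bases with CAPN12 on the opposite strand, which had 10 to 20 counts per library. ACTN1 made up 15.7%, 15.2% and 12.4% of the pair per kilobase of exon in replicates 4, 5 and 6, against 14.0% to 14.6% in the controls.

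Caldesmon and tropomyosin bind along the filament and regulate its interaction with myosin. CALD1, the caldesmon gene, stood at 53.6, 59.3 and 21.7 CPM in FTO-knockdown replicates 4, 5 and 6, against 13.1, 12.5 and 11.1 CPM in control replicates 1, 2 and 3. All 3 FTO-knockdown libraries lay above the controls, replicate 6 at 1.78 times the control mean and replicates 4 and 5 together at 4.62 times. The log2 fold change was 1.88 (standard error 0.30), and 0.84 without replicates 4 and 5.
TPM2, a tropomyosin abundant in muscle, went the other way. It stood at 239.5, 225.8 and 260.9 CPM in FTO-knockdown replicates 4, 5 and 6, against 301.6, 414.6 and 314.0 CPM in control replicates 1, 2 and 3. The 3 FTO-knockdown libraries lay below all controls and close to each other, with a log2 fold change of -0.50 (standard error 0.12), and -0.40 without replicates 4 and 5. Of the 4 tropomyosin genes taken per kilobase of exon, TPM2 made up 31.9%, 31.7% and 36.6% in replicates 4, 5 and 6, against 42.2% to 52.7% in the controls. TPM1 made up 3.97%, 4.23% and 2.79% in replicates 4, 5 and 6, against 2.01% to 2.30% in the controls. TPM1 itself stood at 118.0, 119.6 and 78.8 CPM across FTO-knockdown replicates 4, 5 and 6, with the controls at 62.6 to 65.2 CPM, a log2 fold change of 0.72 by edgeR (adjusted p = 0.00417).

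**Figure D2:**
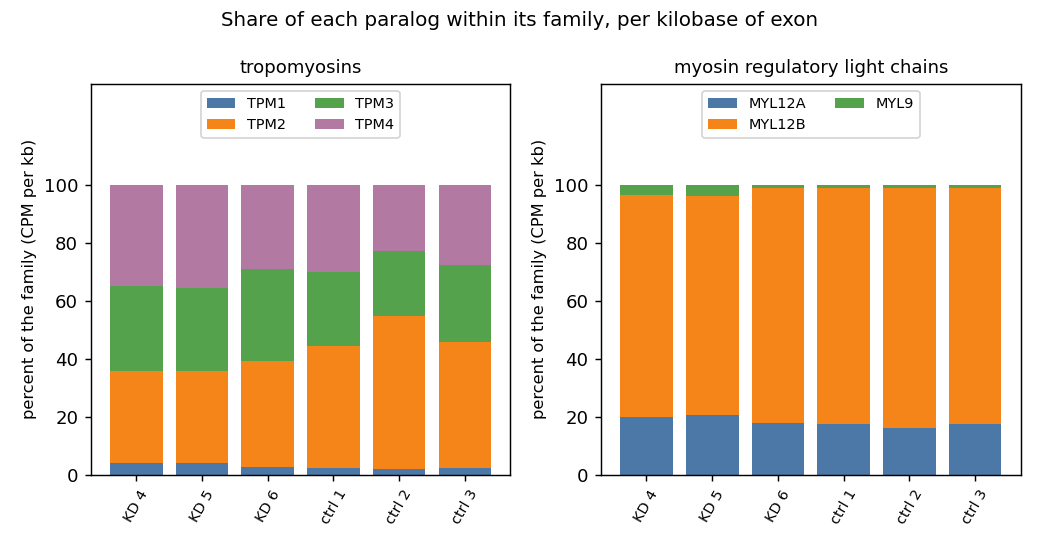
Share of each paralog in the summed level of its family, per kilobase of exon, in FTO-knockdown (KD) replicates 4, 5 and 6 and in control (ctrl) replicates 1, 2 and 3. Each bar is 1 library. TPM2 takes 31.7% to 36.6% in the FTO-knockdown libraries against 42.2% to 52.7% in the controls, and MYL9 takes 3.31% and 3.77% in replicates 4 and 5 and 0.974% in replicate 6, against 0.882% to 1.13% in the controls.

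MYL9 encodes the smooth muscle form of the myosin regulatory light chain. It had 505, 647 and 145 counts in FTO-knockdown replicates 4, 5 and 6, against 123, 243 and 204 counts in control replicates 1, 2 and 3. In CPM these were 35.7, 40.2 and 10.6 in the FTO-knockdown libraries, against 11.4, 16.3 and 10.5 in the controls. Replicates 4 and 5 were well above all others, while replicate 6 lay within the range of the controls, so the groups overlapped. The log2 fold change was 1.18 (standard error 0.39), and -0.27 without replicates 4 and 5. MYL9 made up 3.31% and 3.77% of the 3 regulatory light chain genes per kilobase in replicates 4 and 5 and 0.974% in replicate 6, against 0.882% to 1.13% in the controls. The non-muscle forms MYL12A and MYL12B are near-identical and may share reads. MYL12B stood at 566.2, 553.7 and 601.6 CPM in replicates 4, 5 and 6, against 722.6, 817.9 and 667.5 CPM in the controls, and fell by 0.36 on the log2 scale (adjusted p = 0.0141 from edgeR, not passed without control replicate 1 or FTO-knockdown replicate 4).

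TAGLN (transgelin, SM22), a classical marker of smooth muscle, and TAGLN2, its broadly expressed paralog, differed from each other. TAGLN had 97, 103 and 61 counts in FTO-knockdown replicates 4, 5 and 6, against 63, 99 and 102 counts in control replicates 1, 2 and 3. Its level was 6.86, 6.40 and 4.45 CPM in the FTO-knockdown libraries, against 5.86, 6.63 and 5.27 CPM in the controls. The groups overlapped and replicate 6 was the lowest of all 6 libraries, with a log2 fold change of 0.001 (standard error 0.20). TAGLN shares 11.4% of its exon bases with PCSK7 on the opposite strand, which had 190 to 497 counts per library, and without a stated strand setting their reads cannot be told apart.
TAGLN2 stood at 494.6, 574.7 and 348.1 CPM in FTO-knockdown replicates 4, 5 and 6, against 342.1, 378.0 and 337.0 CPM in control replicates 1, 2 and 3. Replicates 4 and 5 lay above all other libraries and replicate 6 within the control range. Its log2 fold change was 0.42 (standard error 0.15), and -0.02 without replicates 4 and 5. TAGLN made up 0.703% to 0.873% of the pair per kilobase in the FTO-knockdown libraries, against 0.984% to 1.10% in the controls.

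**Figure D3:**
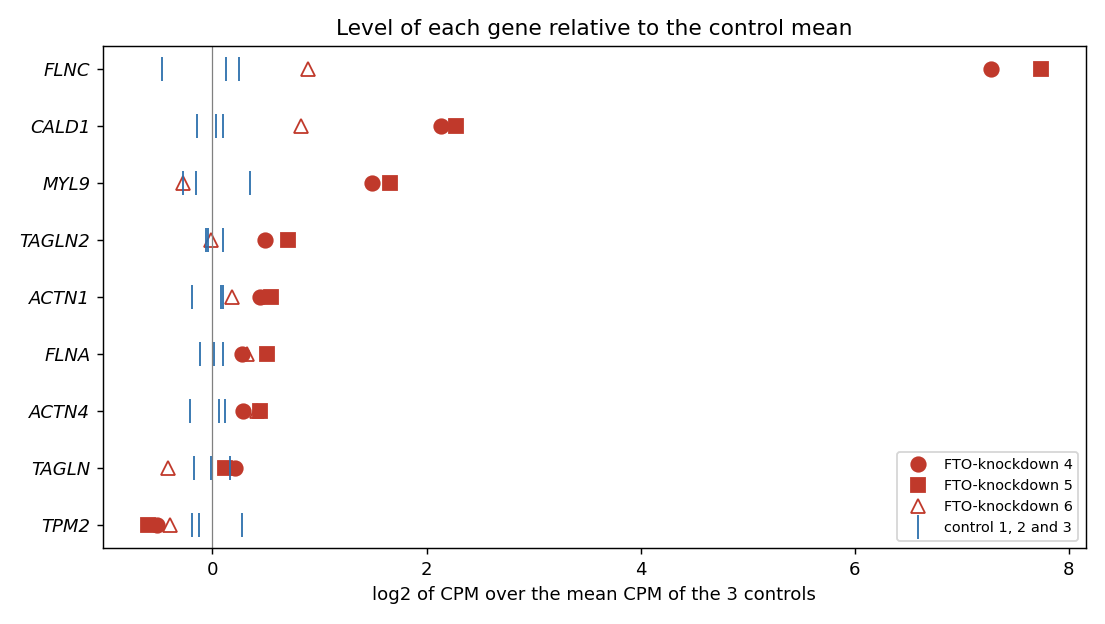
Log2 of the CPM of each library over the mean CPM of the 3 controls, for the 9 genes. Filled circles and squares are FTO-knockdown replicates 4 and 5, open triangles replicate 6 and ticks the controls. For FLNC, CALD1 and MYL9 replicate 6 lies far from replicates 4 and 5, and for TAGLN2 it lies at a smaller distance. For FLNA, ACTN4 and TPM2 it lies close to them. For TAGLN it lies below replicates 4 and 5 by a distance like that of TAGLN2, and below every control.

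In the fit across all genes, 7 of the 9 genes passed in either direction, against 37.4% of all genes tested. Of these, 6 were higher in the FTO-knockdown group at an adjusted p under 0.05 from edgeR (FLNA, FLNC, ACTN1, ACTN4, CALD1 and MYL9), against 19.5% of all genes tested. TPM2 was lower, against 17.9% of genes, and TAGLN and TAGLN2 did not pass. The genes were chosen with these results known, so the counts carry no weight beyond description. The median log2 fold change was 0.40 over the 9 genes and 0.01 over all genes tested. Without control replicate 1, 2 or 3 the number higher was 1, 3 and 3, and without replicates 4 and 5 it was 1. CALD1 was the gene that passed in each of these fits. FLNA and ACTN4 did not pass without control replicate 1, and ACTN1 passed, when a single library was left out, only without FTO-knockdown replicate 6. TPM2 passed when any 1 library was left out but not without replicates 4 and 5. FLNC did not pass with limma voom or without control replicate 1, 2 or 3, and MYL9 did not pass in any fit with 1 library left out other than that without replicate 6, nor with DESeq2 or voom. TAGLN2 passed in DESeq2, with library totals as scaling, with no filter, with at least 10 counts in every library, and without replicate 6.

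Replicate 6 was set beside the controls gene by gene. It lay above every control for 5 of the 9 genes (FLNA, FLNC, ACTN1, ACTN4 and CALD1), below every control for 2 (TAGLN and TPM2) and within their range for 2 (TAGLN2 and MYL9). Of all genes tested, 37.6% lay above every control in replicate 6, 37.5% below and 25.0% within the range. Its ratio to the control mean was 1.25 for FLNA, 1.13 for ACTN1, 1.34 for ACTN4, 1.86 for FLNC, 1.78 for CALD1, 0.988 for TAGLN2, 0.829 for MYL9, 0.760 for TPM2 and 0.751 for TAGLN. Between the pair of high libraries, 7 of the 9 genes were higher in replicate 5 than in replicate 4, against 51.3% of all genes, and the ratio of replicate 5 to replicate 4 ranged from 0.933 for TAGLN to 1.38 for FLNC.

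Taken per kilobase of exon, the order of the genes differed between the groups at the low end. The exon length used is the union of exons in GENCODE 29. In the FTO-knockdown libraries the order ran TAGLN2 (190.0 CPM per kb), ACTN4 (167.5), FLNA (161.6), TPM2 (74.5), ACTN1 (28.3), FLNC (12.0), MYL9 (10.2), CALD1 (4.56) and TAGLN (1.51). In the controls it ran TAGLN2 (141.7 CPM per kb), ACTN4 (128.1), FLNA (125.0), TPM2 (105.7), ACTN1 (21.5), MYL9 (4.52), TAGLN (1.51), CALD1 (1.24) and FLNC (0.0972). The ranges of neighbours overlapped among TAGLN2, ACTN4 and FLNA in both groups and between FLNA and TPM2 in the controls, so their order was not the same in every library. Those of FLNC, MYL9 and CALD1 overlapped in the FTO-knockdown libraries only when replicate 6 was taken with replicates 4 and 5. MYL9 lay above CALD1 in each FTO-knockdown library. FLNC was last in the controls and between ACTN1 and MYL9 in replicates 4 and 5, at 15.1 and 20.7 CPM per kb. In replicate 6 it was also last, at 0.181 CPM per kb, below TAGLN at 1.135, so the order by FTO-knockdown mean was not that of replicate 6.

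Over the 6 libraries FLNC, CALD1, TAGLN2 and MYL9 correlated with each other in log2 CPM at Pearson r of 0.90 to 0.98. ACTN1 correlated with CALD1 at 0.91 and with FLNC at 0.89, and also with FLNA at 0.91. FLNA and ACTN4 correlated with each other at 0.96. FLNA correlated with CALD1 at 0.84, with FLNC at 0.76 and with MYL9 at 0.58, and ACTN4 with the same genes at 0.72, 0.61 and 0.37, so the genes formed a gradation with no clear break. TPM2 was correlated with FLNA at -0.93, with ACTN1 at -0.96 and with ACTN4 at -0.95. TAGLN had its highest r with MYL9 (0.73). These values describe 6 points, among which replicates 4 and 5 lie far from the rest for several genes, and all values of 1 library share its depth and scaling.

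The genes outside the actin lists whose log2 CPM over the 6 libraries was most like the mean profile of the 9 (average log2 CPM of at least 3) were EML1, TGM2, RAC2, PMP22, SGK1, CTSK, HK1, S100A3, LIMK1 and TNFRSF10D, with r of 0.996 to 0.999 over 6 libraries. LIMK1, a kinase that phosphorylates cofilin, stood at 140.5, 178.9 and 78.1 CPM in FTO-knockdown replicates 4, 5 and 6, against 65.2 to 67.7 CPM in the controls. RAC2, a small GTPase best known from blood cells, stood at 105.2, 141.8 and 24.8 CPM across FTO-knockdown replicates 4, 5 and 6, with the controls at 18.1 to 22.3 CPM. TGM2, a transglutaminase, stood at 34.2, 44.0 and 19.1 CPM across FTO-knockdown replicates 4, 5 and 6, with the controls at 16.2 to 17.0 CPM. These genes were picked for this likeness, so their pattern is no result of its own. The 9 genes enter the mean profile centred and scaled, and correlate with it at 0.99 for FLNC, 0.98 for TAGLN2 and CALD1, 0.96 for MYL9, 0.89 for ACTN1, 0.79 for FLNA, 0.63 for ACTN4, 0.51 for TAGLN and -0.76 for TPM2.

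Markers of other cell types were set beside these values. The sums of the fibroblast, smooth muscle, leukocyte and endothelial lists were all highest in replicates 4 and 5, as were FLNC, CALD1 and MYL9. In bulk samples fewer cells of a type and less RNA per cell cannot be told apart. The 11 fibroblast markers summed to 961.5 and 1125 CPM of library totals in replicates 4 and 5 and to 22.3 CPM in replicate 6, against 15.1 to 15.7 CPM in the controls. Of these, 3 (VIM, COL1A1 and COL1A2) reached 10 CPM in both replicates 4 and 5, and VIM made up most of the sum in replicates 4 and 5, at 663.1 and 747.7 CPM of library totals. Of the collagens in that list, COL1A1 stood at 157.7, 202.0 and 17.8 CPM of library totals across FTO-knockdown replicates 4, 5 and 6, with the controls at 7.28 to 10.2 CPM, and COL1A2 had 1706, 2515 and 3 counts in replicates 4, 5 and 6, against 0, 0 and 1 in the controls. FAP had 64, 81 and 4 counts in replicates 4, 5 and 6, against 0 in each control. DCN had 14 and 15 counts and LUM 20 and 22 counts in replicates 4 and 5, with 0 in replicate 6 and in each control. PDGFRB had 48 to 109 counts in the FTO-knockdown libraries, against 71 to 96 counts in the controls. COL3A1, PDGFRA and THY1 had at most 2 counts in any library, and POSTN was at 0 in all.
The 9 smooth muscle markers summed to 138.6, 169.2 and 117.9 CPM in replicates 4, 5 and 6, against 115.5 to 133.1 CPM in the controls. Of these, DES and SMTN were the genes at 10 CPM or more, in all libraries. SMTN stood at 87.4, 115.7 and 62.8 CPM of library totals in replicates 4, 5 and 6, against 62.6 to 69.2 CPM in the controls. DES was not higher there, at 37.6, 38.6 and 45.4 CPM in replicates 4, 5 and 6, against 37.7 to 60.3 CPM in the controls. MYOCD had at most 1 count, and CNN1 had 18, 39 and 1 counts in replicates 4, 5 and 6, against 0 in each control. The 9 leukocyte markers summed to 69.2, 82.2 and 6.38 CPM in replicates 4, 5 and 6, against 3.46 to 5.37 CPM in the controls, most of it CD74 in replicates 4 and 5, with PTPRC at no more than 1 count in any library and CD3E and MS4A1 at 0. The 6 endothelial markers were near the floor, and summed to 2.81, 2.80 and 0.988 CPM in replicates 4, 5 and 6, against 0.637 to 1.11 CPM in the controls. The part of other cell types in the levels of the 9 genes was not tested.

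The rest of the actin cytoskeleton was described with 81 further genes listed by role, of which 72 were tested. At an adjusted p under 0.05 from edgeR, 29 of them had a higher level in the FTO-knockdown group, 5 a lower one, and 38 did not pass. These shares were 40.3% and 6.94%, against 19.5% and 17.9% of all genes tested. Their median log2 fold change was 0.25, against 0.01 over all genes. Of the 34 genes that passed, 14 also passed in each of the 6 fits with 1 library left out, and 10 passed without replicates 4 and 5 (CNN3, TMOD2, ROCK1, ROCK2, LIMA1, PXN, PDLIM5, TMSB10, DIAPH1 and MRTFB). Without control replicate 1, 2 or 3 the number higher was 14, 14 and 17, and without replicates 4 and 5 it was 9.

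**Figure D4:**
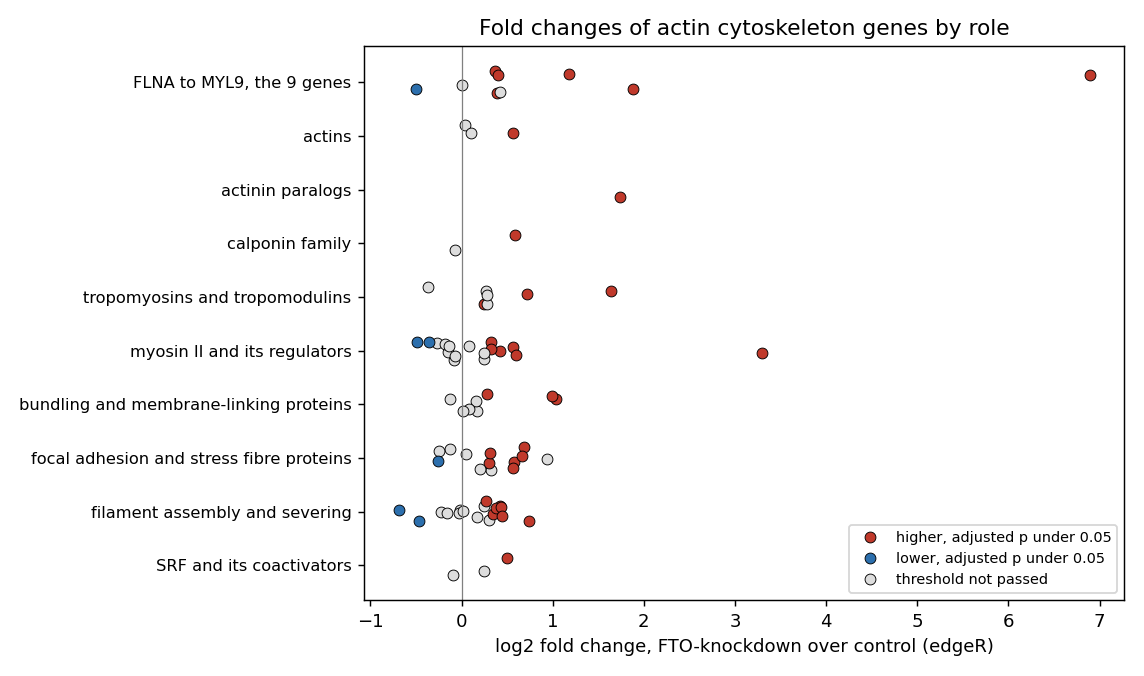
Log2 fold changes of FTO-knockdown over control from edgeR for the 9 genes and for the other tested genes of the actin cytoskeleton, by role, with 1 gene left out. Each point is 1 gene, red where higher and blue where lower at an adjusted p under 0.05, grey where the threshold was not passed. Outside the 9, 29 are red and 5 blue, and FLNC lies farthest to the right at 6.89.

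Of the 3 actins tested, 1 was higher and none was lower. ACTB and ACTG1, the cytoplasmic actins that form most filaments of non-muscle cells, did not pass. ACTB stood at 4023 to 4507 CPM in the FTO-knockdown libraries, against 3789 to 4512 CPM in the controls, and ACTG1 at 3694 to 4168 CPM, against 3546 to 3922 CPM in the controls. Their log2 fold changes were 0.04 and 0.10 (adjusted p of 0.726 and 0.35 from edgeR), and their near-identical sequences may share reads with each other and with pseudogenes. ACTA2, smooth muscle actin, was low in all libraries. It stood at 8.77, 8.08 and 5.98 CPM in replicates 4, 5 and 6, against 5.02 to 5.22 CPM in the controls. Its log2 fold change was 0.57 by edgeR (adjusted p = 0.0345). This call was lost when any 1 control or replicate 4 or 5 was left out, with no filter, and with DESeq2. ACTA1, ACTC1 and ACTG2 did not pass the filter, nor did ACTN3, TAGLN3, CNN1 and MYOCD.

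Among myosin II and its regulators, 6 of 17 genes were higher and 2 were lower. MYLK, the kinase that phosphorylates the regulatory light chain, followed the pattern of FLNC. It stood at 17.6, 22.2 and 1.82 CPM in replicates 4, 5 and 6, against 1.21 to 1.55 CPM in the controls, a log2 fold change of 3.30 by edgeR (adjusted p = 0.00557), and 0.37 without replicates 4 and 5. It did not pass with limma voom or without control replicate 1, 2 or 3.
MYH9, the main non-muscle myosin II heavy chain, stood at 852.2, 923.3 and 561.4 CPM across FTO-knockdown replicates 4, 5 and 6, with the controls at 499.7 to 544.2 CPM (log2 fold change 0.56, adjusted p = 0.0177 from edgeR). Replicate 6 lay just above the controls, and the gene passed only in the fit without replicate 6 when 1 library was left out. ROCK1, a kinase that raises the phosphorylation of myosin, stood at 56.9, 52.0 and 52.1 CPM across FTO-knockdown replicates 4, 5 and 6, with the controls at 29.3 to 39.7 CPM (log2 fold change 0.60, adjusted p = 0.00401 from edgeR), at a like level in all 3 FTO-knockdown libraries. MYL6B, an essential light chain, fell by 0.49 (adjusted p = 0.00782 from edgeR).

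Among focal adhesion and stress fibre proteins, 6 of 13 were higher and 1 was lower. The adaptors TLN1 (talin), FHL2 and PXN (paxillin) had log2 fold changes of 0.69, 0.67 and 0.58 (adjusted p of 0.00652, 0.00685 and 0.002 from edgeR). Of these, PXN passed whichever library was left out, TLN1 did not pass without control replicate 1 or 2, and FHL2 did not pass without control replicate 1, 2 or 3. PDLIM1, an actinin-binding protein, fell by 0.26 (adjusted p = 0.0318 from edgeR), and did not pass without control replicate 1, control replicate 2 or FTO-knockdown replicate 4 or 5. Among genes of filament assembly and severing, 7 of 17 were higher and 2 were lower. CFL2, a cofilin that severs filaments, had a log2 fold change of 0.73 by edgeR (adjusted p = 0.00505), not passed without control replicate 2, and the formin DIAPH1 of 0.44 (adjusted p = 0.00818), not passed without control replicate 1. CAP1, which recycles actin monomers, had a log2 fold change of 0.44 by edgeR (adjusted p = 0.0111), not passed without FTO-knockdown replicate 4. The monomer-binding thymosin TMSB10 stood at 3375, 3223 and 3083 CPM in replicates 4, 5 and 6, against 4517 to 6347 CPM in the controls, and fell by 0.69 (adjusted p = 0.00248 from edgeR). CAPG, a capping protein, fell by 0.47 (adjusted p = 0.0165), not passed without control replicate 1 or 2 or FTO-knockdown replicate 4.

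Of the 8 bundling and membrane-linking genes tested, 3 were higher and none was lower. RDX (radixin), LIMA1 and FSCN1 (fascin) had log2 fold changes of 1.04, 0.99 and 0.28 (adjusted p of 0.00391, 0.000267 and 0.0378 from edgeR). RDX stood at 22.4, 22.9 and 12.8 CPM in replicates 4, 5 and 6, against 9.31 to 9.58 CPM in the controls. LIMA1, which stabilises filament bundles, stood at 177.1, 173.0 and 157.2 CPM across FTO-knockdown replicates 4, 5 and 6, with the controls at 79.8 to 95.8 CPM, at a like level in the 3 FTO-knockdown libraries. RDX and LIMA1 passed whichever library was left out, and FSCN1 passed only in 1 of the 6 such fits. FSCN1 also did not pass with upper-quartile scaling or with no filter. Singled out after their values were seen, MSN (moesin), the paralog of radixin, stood at 103.4, 125.2 and 0.219 CPM in replicates 4, 5 and 6, against 0.103 to 0.465 CPM in the controls, and the plastin LCP1 at 17.2, 17.3 and 0.0729 CPM in replicates 4, 5 and 6, against at most 0.093 CPM in the controls. Both were high in replicates 4 and 5 alone, and both were removed by the filter, which asks for enough counts in at least 3 libraries.

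Among tropomyosins and tropomodulins, 3 of 7 were higher. TMOD2, which caps the slow-growing filament end, stood at 8.77, 7.77 and 8.31 CPM in replicates 4, 5 and 6, against 2.14 to 2.89 CPM in the controls (log2 fold change 1.64, adjusted p = 0.000509 from edgeR, and 1.64 without replicates 4 and 5). TPM3 had a log2 fold change of 0.25 by edgeR (adjusted p = 0.037), and TPM4 of 0.28 (adjusted p = 0.064). With 1 library left out, TPM3 passed only in the fit without replicate 5. TPM3 also did not pass with upper-quartile scaling or with no filter. CNN3, a calponin of non-muscle cells, had a log2 fold change of 0.59 by edgeR (adjusted p = 0.00907), and was highest in replicate 6 at 163.7 CPM, while the controls lay at 75.4 to 109.9 CPM. ACTN2, the muscle alpha-actinin, passed the test (log2 fold change 1.74, adjusted p = 0.0145 from edgeR), but its level was at most 0.933 CPM, and the call was lost when any 1 control or FTO-knockdown replicate 5 was left out, and with DESeq2.

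SRF stood at 49.95, 53.2 and 51.3 CPM in replicates 4, 5 and 6, against 53.5 to 57.5 CPM in the controls (log2 fold change -0.09, adjusted p = 0.415 from edgeR). Of its coactivators, MRTFA had a log2 fold change of 0.25 by edgeR (adjusted p = 0.0967) and MRTFB of 0.50 (adjusted p = 0.00384), with MRTFB at 34.9, 30.6 and 33.0 CPM across FTO-knockdown replicates 4, 5 and 6, with the controls at 22.7 to 24.1 CPM. MRTFB passed whichever library was left out, and its 3 FTO-knockdown libraries did not show the split of replicates 4 and 5 from replicate 6. A CArG box was found in 14 of the 132 promoters of the further genes (10.6%) and in 2 of the 17 of the 9 genes (11.8%), against 1.29% of all promoters.

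In GENCODE 29 on GRCh38, FLNC lies on chromosome 7 from 128830377 to 128859274, and CALD1 on the same chromosome from 134744252 to 134970728. FLNA lies on chromosome X from 154348524 to 154374638, ACTN1 on chromosome 14 from 68874143 to 68979440, and ACTN4 on chromosome 19 from 38647649 to 38731583. TAGLN lies on chromosome 11 from 117199321 to 117204782, TAGLN2 on chromosome 1 from 159918107 to 159925732, TPM2 on chromosome 9 from 35681992 to 35690121, and MYL9 on chromosome 20 from 36541484 to 36551447. The submitters' notes name hg19 and GRCh37, and no coordinates stand beside the counts, so the positions are given for orientation and may differ from those used for counting. The antisense gene FLNC-AS1 shares 0.7% of the exon bases of FLNC and had at most 4 counts in any library.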

How the data were processed

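RNA-seq of 253J cells was analysed from 3 FTO-knockdown and 3 control samples, grouped by their labels. The authors deposited 1 file of counts of reads per gene for each sample, as raw counts. Builds hg19 and GRCh37, the aligner TopHat2 2.0.11 and the counter HTSeq stand in the submitters' processing notes. For the strand setting and annotation release, nothing is given in the sources used here. A symbol was found for 56321 IDs (93.1%). With edgeR 4.0.16 in R 4.3.3, genes with low counts were removed (filterByExpr, minimum count 10, minimum total 15), libraries were scaled by TMM, and quasi-likelihood models holding only the group were fitted to 14965 genes. Tests were two-sided, with Benjamini-Hochberg adjustment over all genes and a threshold of 0.05. Standard errors are the absolute log2 fold change over the root of its F statistic. Marker sums use CPM on library totals. Correlations use log2 CPM with a pseudocount of 2 counts.

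The 9 genes, the further list and the tests were chosen with earlier results of these data known. Named genes were all 9, up to 3 in each direction per role with the largest change past the threshold, a few fixed paralogs and regulators, and the 10 genes most like the mean profile. One gene of the further list is counted but its values are not reported here. DESeq2 1.42.0, limma voom (limma 3.58.1), other scalings and filters, and leaving out libraries were alternatives. Depth limits the genes with few counts, such as TAGLN and FLNC in the controls.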

Additional observations from a re-analysis of the deposited data

How the results depend on the processing

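No paired analysis was possible because the replicate numbers 4 to 6 and 1 to 3 are not shared between the groups. Of the 9 genes, 1 to 7 were higher and 1 was lower when 1 library was left out. Of the 72 further genes, 14 to 33 were higher and 2 to 5 lower, and of all genes tested 1383 to 3826 were higher and 1589 to 2928 lower. Without replicates 4 and 5, which compares 1 library with 3 controls and takes the spread from the controls, 1 of the 9 was higher and 0 lower, 9 further genes were higher and 1 lower, and 970 of all genes were higher and 926 lower. With library totals alone as scaling, which moved the median log2 fold change of all genes to 0.13, 1787 genes were lower, against 2684, and 4088 were higher, against 2913. The log2 fold change of TAGLN, 0.001 by the reported settings, was below 0 with DESeq2-type size factors (-0.005), upper-quartile factors (-0.025), no filter (-0.002), DESeq2 (-0.009), limma voom (-0.005), and without replicates 4 and 5 (-0.41), and was -0.12 to 0.16 with 1 library left out. Without replicates 4 and 5 the sign of TAGLN2 (-0.017) and MYL9 (-0.27) also turned. The cause was not tested. FLNC gave no value with at least 10 counts in every library, since control replicate 1 had 7 counts. With CPM on library totals, the ratios of replicates 4 and 5 to the other libraries kept their direction for all 9 genes. The edgeR adjusted p of FTO was 0.107 without control replicate 1, 0.113 without control replicate 3 and 0.0576 on library totals. Depth limits TAGLN, with 61 to 103 counts per library, and FLNC in the controls.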
